A study of Mus musculus with 6 samples.

Results

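The unfolded protein response was followed through 32 genes that encode the stress sensors of the endoplasmic reticulum (ER), its chaperones, its disulfide and prolyl isomerases, and its degradation and translocation machinery. The genes came from a list of 33 names, of which Vimp is an older symbol of Selenos. A probe was assigned to a gene when its RefSeq accession belonged to that gene, and all 32 of the 22911 genes named on the array were found. All 32 were well above background on all 6 arrays, so none was lost to the filter on dim probes that left 14170 genes for the tests.

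Livers of male mice were compared, 3 with a liver-specific knockout of Elovl6 (LKO) and 3 controls, whose sample titles carry the name Flox. Elovl6 encodes the enzyme that lengthens palmitate to stearate. Every mouse, knockout or control, had received high-sucrose food for 14 days and then a fast of 4 hours, and 1 mouse was hybridized to each one-colour Agilent array. The sources used here do not give the promoter that drives the deletion, the strain or the age. The comparison asks how the liver transcriptome differs on this diet when the elongase is missing.

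As background, proteins that enter the ER are folded by chaperones such as BiP and by enzymes that form disulfide bonds, and those that do not fold are carried back to the cytosol for degradation. When unfolded proteins accumulate, 3 membrane sensors signal to the nucleus. IRE1 (Ern1) splices the mRNA of the transcription factor XBP1, ATF6 is cut in the Golgi to release a transcription factor, and PERK (Eif2ak3) phosphorylates a translation factor and thereby raises ATF4. Hepatocytes secrete most plasma proteins and depend on this machinery, and the response is also known from livers that face nutrient and lipid load.

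The targeted gene was measured first. Elovl6 had scaled signals of 0.231, 0.337 and 0.368 in LKO livers, against 21.6, 43.3 and 23.1 in controls, where the scaled signal is the processed signal divided by the 75th percentile of its array. Each mouse therefore matched its label, although the place of the probe within or outside the deletion was not tested. No spot was saturated, and 52.1% to 56.6% of an array's spots were well above background. All 15 hepatocyte markers were well above background on all 6 arrays. In whole liver, fewer cells of a type and less RNA per cell cannot be told apart.

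Over the 14170 genes, 2 (0.0141%) passed an adjusted p of 0.05 in limma (Benjamini-Hochberg over all genes), and 0 of the 32 ER genes were among them. The smallest adjusted p of an ER gene was 0.164, for Derl3. At an unadjusted limma p under 0.05, 7 ER genes were higher and 0 were lower in LKO, where 5.59% of all genes were higher and 5.56% lower. No test was made on the set of genes, which was chosen with earlier results of these data known. Nor is any ER gene below shown to differ by a test adjusted over all genes.

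The known control elements of this response were searched in the promoters of these genes, and the sequences are shown because they mark which of the genes carry one and which do not. RefSeq windows of GRCm38.p6, from 250 bases before to 50 bases after each transcript start, were found for 27 of the 32 genes. Atf6, Sec61a1, Derl1, Hyou1 and Manf had no window in that table. The ER stress response element (ERSE) was searched as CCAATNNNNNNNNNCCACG on both strands, without mismatch. Its CCAAT part is known to be bound by NF-Y and its CCACG part by ATF6. The element was found in 39 of 32851 windows of all genes (0.119%). Counted by gene, it was found in 37 of all 27025 genes with a window (0.137%) and in 9 of the 27 ER genes (33.3%). Hsp90b1 had it at 2 positions, so there were 10 sites, and 4 of them read CCAAT to CCACG on the strand opposite to the gene. Their first base in the window lay between 44 and 212 bases before the start. Each site is written from CCAAT to CCACG, with the fixed letters of the element in capitals and the spacer of 9 bases in lower case.
Hspa5 (chr2:34772025-34772043): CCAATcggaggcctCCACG
Hsp90b1 (chr10:86705638-86705656): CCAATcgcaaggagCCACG
Hsp90b1 (chr10:86705533-86705551): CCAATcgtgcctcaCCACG
Creld2 (chr15:88819520-88819538): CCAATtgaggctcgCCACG
Dnajc3 (chr14:118937827-118937845): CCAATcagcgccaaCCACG
Calr (chr8:84847075-84847093): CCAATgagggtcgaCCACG
Canx (chr11:50325800-50325818): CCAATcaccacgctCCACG
Pdia6 (chr12:17266491-17266509): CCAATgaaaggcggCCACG
Derl3 (chr10:75893242-75893260): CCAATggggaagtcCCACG
Syvn1 (chr19:6046532-6046550): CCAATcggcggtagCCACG

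A shorter form, ERSE-II, was searched on both strands as ATTGG and CCACG with 1 base between them and was present in 12 of 32851 windows (0.0365%), among them those of Herpud1 and Dnajb11. The capitals again mark the fixed letters. In Herpud1 the site begins 52 bases before the start, and in Dnajb11 it begins 7 bases after the first base of the transcript.
Herpud1 (chr8:94386377-94386387): ATTGGgCCACG
Dnajb11 (chr16:22857852-22857862): ATTGGcCCACG

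The core of the unfolded protein response element, TGACGTGG, known to be bound by XBP1 and ATF6, was found in 0 of the 27 ER genes. Over all genes with a window it was found in 193 of 27025 (0.714%), and in 222 of all 32851 windows (0.676%). With 1 mismatch allowed, the ERSE was found in 14 of the 27 genes (51.9%) and in 1.72% of all genes with a window. A match describes letters in a window and shows no binding. The 9 genes with an exact ERSE all had higher values in LKO, with log2 differences from 0.20 to 2.41 and a median of 0.27. Another 18 genes had a window but no exact ERSE, among them Herpud1 and Dnajb11, which carry the ERSE-II. Of these 18 genes, 15 were higher, with differences from -0.16 to 0.84 and a median of 0.26. Both medians lay close together, and Sdf2l1, second among the 32 by difference, had no exact element in its window. These are descriptions with no test.

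The whole windows of Hspa5 (BiP), the standard readout of the response, and of Derl3, the ER gene with the largest difference, are given 5′ to 3′ on the gene's strand with the ERSE in capitals. Both genes lie on the plus strand, at chr2:34771840-34772139 and chr10:75893148-75893447 of GRCm38.p6.
Hspa5: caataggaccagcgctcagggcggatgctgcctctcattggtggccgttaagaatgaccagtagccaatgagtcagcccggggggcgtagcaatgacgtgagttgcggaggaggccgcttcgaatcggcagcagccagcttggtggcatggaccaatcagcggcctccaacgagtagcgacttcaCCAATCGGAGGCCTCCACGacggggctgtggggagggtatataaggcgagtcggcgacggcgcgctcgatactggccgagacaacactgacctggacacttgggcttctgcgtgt
Derl3: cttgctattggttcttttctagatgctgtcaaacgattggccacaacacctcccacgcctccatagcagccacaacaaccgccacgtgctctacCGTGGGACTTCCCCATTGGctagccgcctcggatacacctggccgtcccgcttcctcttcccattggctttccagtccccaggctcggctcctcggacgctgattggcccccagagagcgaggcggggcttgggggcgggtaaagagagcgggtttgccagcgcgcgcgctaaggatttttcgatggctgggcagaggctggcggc
In Hspa5 the element reads along the gene, close to the TATA-like stretch that precedes the start. In Derl3 it lies farther upstream and on the other strand, so the capitals show it in reverse.

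Across the 32 genes, values were higher in LKO for 29 (90.6%), against 51.0% of all genes tested. The median log2 difference, LKO minus control, was 0.26 for the ER genes and 0.00 for all genes. With arrays scaled to their median instead, 26 of the 32 were higher and Derl1, Ern1 and Sel1l turned to lower values. That scaling also changed the balance over all genes at an unadjusted p under 0.05 to 459 higher and 1131 lower, against 792 and 788. The groups did not overlap for 10 ER genes, 8 of them higher in LKO (8.16% of all genes) and 2 lower (9.03% of all genes).

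**Figure D1:**
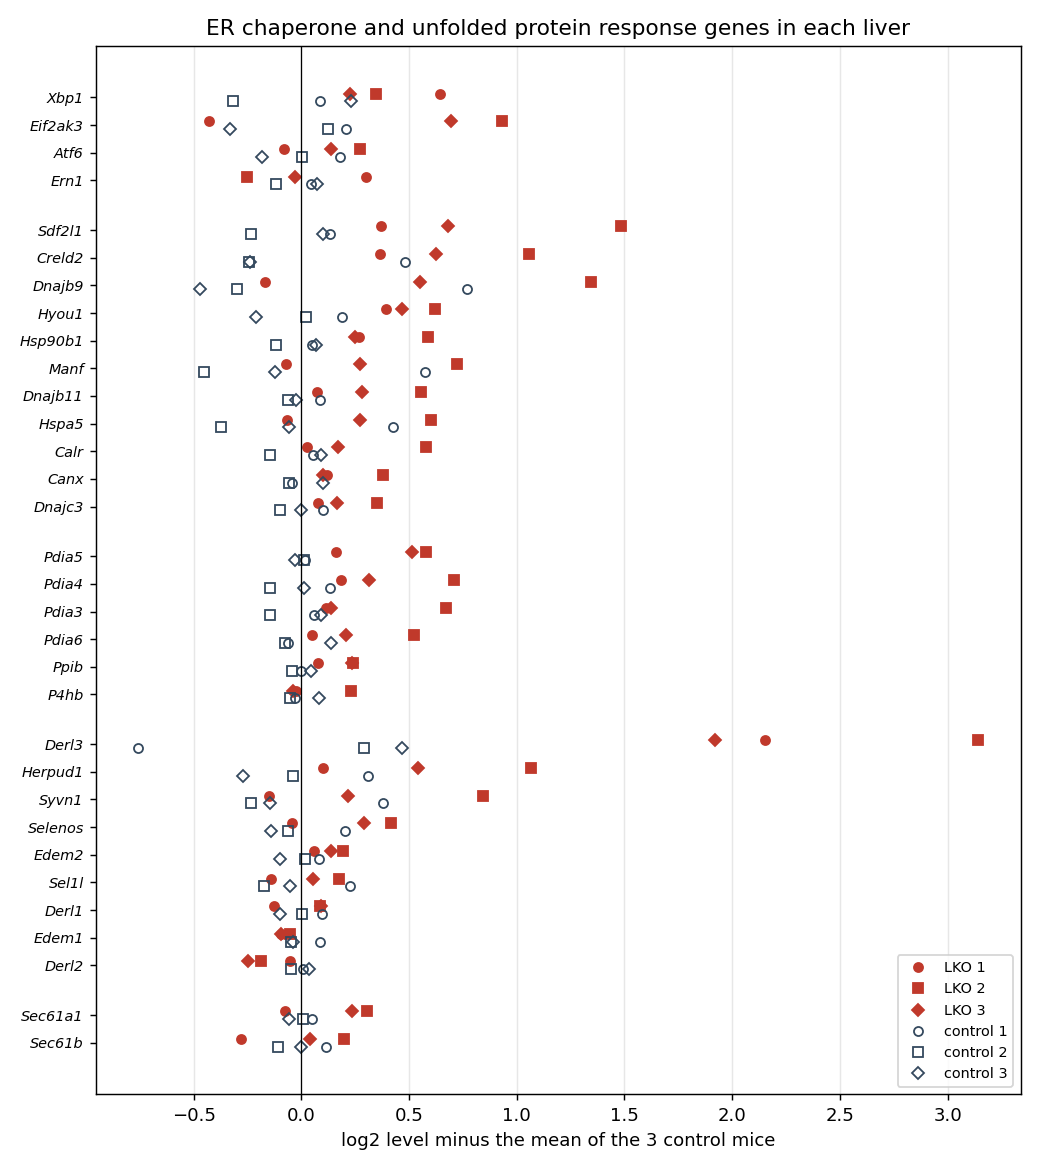
Log2 level of the 32 genes in each mouse minus the mean of the 3 control mice, by role from sensors (top) to translocation (bottom), with LKO as filled and control as open symbols. The square of LKO 2 lies farthest right for 26 of the 32 genes, and Derl3 is separated from the controls in all 3 LKO mice.

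The higher values were not spread evenly over the LKO mice. LKO 2 had the highest level of all 6 mice for 26 of the 32 genes, LKO 1 for 2 and LKO 3 for 0, while controls 1 and 3 had it for 3 and 1. Control 2 had the lowest level for 17. Set against the mean of the controls, the median over the 32 genes was 0.05, 0.54 and 0.23 in LKO 1, 2 and 3, against 0.09, -0.07 and -0.03 in controls 1, 2 and 3. LKO 1 thus lay within the range of the controls. Without LKO 2 the median difference was 0.13 with 26 genes higher, and without LKO 1 it was 0.37 with 29 higher. The SD between mice on the log2 scale was larger in LKO than in control for 22 of the 32 genes, with medians of 0.24 and 0.13.

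The position on the slide moved with these values. All 6 arrays shared 1 slide and 1 scan, with LKO 2 and LKO 3 in row 2 and LKO 1 and the 3 controls in row 1. With the row as a covariate, which leaves LKO 1 alone against the controls, the median difference was 0.05 and 18 of the 32 genes were higher, against 50.3% of all genes. No row 2 array is a control, so within row 2 there is no comparison, and row and mouse cannot be told apart for LKO 2 and LKO 3.

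Among the sensors no gene was separated between the groups. Ern1, which encodes IRE1, had scaled signals of 1.03, 0.706 and 0.823 in LKO, against 0.867, 0.775 and 0.883 in controls. Its log2 difference was 0.01 ± 0.15 (SE, n = 3 per group), and LKO mice lay on both sides of the controls. Atf6 had 1.66, 2.12 and 1.93 in LKO, against 1.99, 1.76 and 1.55 in controls, a difference of 0.11 ± 0.13. For these genes the spread between mice was larger than the difference.

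Eif2ak3, which encodes PERK, had scaled signals of 0.756, 1.94 and 1.65 in LKO, against 1.18, 1.11 and 0.809 in controls. LKO 1 was the lowest of all mice and LKO 2 and 3 the highest, so that the difference of 0.40 ± 0.36 (SE) came with an SD of 0.73 within LKO. Without LKO 1 it was 0.81 and without LKO 2 it was 0.13. Xbp1, the transcription factor whose mRNA IRE1 splices, had 93.1, 75.9 and 69.8 in LKO, against 63.2, 47.8 and 70.0 in controls. Here LKO 1 was the highest mouse, unlike for most of the other genes, and the groups met at LKO 3 and control 3. The difference of 0.41 ± 0.17 did not pass (limma adjusted p = 0.459) and was 0.25 without control 2. The 3 probes of Xbp1 differed by 0.28 to 0.41. On both other probes LKO 3 lay below controls 1 and 3, at 4.80 against 5.45 and 5.62, and at 5.83 against 6.86 and 6.84. Whether a probe separates spliced from unspliced Xbp1 mRNA was not tested.

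All 11 chaperones and co-chaperones had higher values in LKO, with a median difference of 0.31, where 51.0% of all genes were higher. Of the 11, 4 had an unadjusted limma p under 0.05, against 5.59% of all genes higher at that p. Sdf2l1, a component of the ER chaperone complex, had scaled signals of 3.57, 7.73 and 4.43 in LKO, against 3.03, 2.35 and 2.96 in controls. All 3 LKO mice were above all controls, LKO 2 by far the most. The difference was 1.80-fold (log2 0.84 ± 0.28, SE, limma adjusted p = 0.358), and 0.52 on the log2 scale without LKO 2.

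Creld2, a secreted ER stress-inducible protein, had 34.2, 55.3 and 40.9 in LKO, against 37.1, 22.4 and 22.5 in controls. Control 1 lay above LKO 1, so the groups overlapped despite a 1.60-fold difference (0.68 ± 0.25, SE, limma adjusted p = 0.407). Hyou1, a large chaperone that acts as a nucleotide exchange factor of BiP, had 0.455, 0.532 and 0.479 in LKO, against 0.395, 0.351 and 0.300 in controls. Its groups were apart and its LKO values close together, with a difference of 1.41-fold (0.49 ± 0.13, SE, limma adjusted p = 0.269), which was 1.23-fold or 0.30 on the log2 scale with normexp background correction. The other 2 Hyou1 probes had smaller log2 differences of 0.41 and 0.25, also without overlap. Hsp90b1, the ER form of the HSP90 chaperone, had 109, 136 and 107 in LKO, against 93.5, 83.2 and 94.6 in controls, again without overlap (0.37 ± 0.12, SE, limma adjusted p = 0.353).

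Hspa5, which encodes BiP and binds the sensors in resting cells, did not separate the groups. Its scaled signals were 76.2, 121 and 96.3 in LKO, against 107, 61.6 and 76.7 in controls. LKO 1 was close to control 3, and control 1 was above LKO 1 and LKO 3. The main probe differed by 0.27 ± 0.24 (SE), and its other 2 probes by 0.05 and 0.08. Leaving out 1 mouse moved the main probe's difference between 0.08 (without control 2) and 0.48 (without control 1), and it was 0.10 without LKO 2 and 0.44 without LKO 1. Dnajb9, a co-chaperone that represses IRE1, had 4.19, 12.0 and 6.92 in LKO, against 8.05, 3.84 and 3.40 in controls. Control 1 was second only to LKO 2, and the difference of 0.58 ± 0.46 was close to its error. Without control 1 it was 0.96 and without LKO 2 it was 0.19. Manf, a secreted ER protein, showed the same overlap, with a difference of 0.31 ± 0.30 and a control 1 value second only to LKO 2. It was 0.08 without control 2, 0.10 without LKO 2, 0.50 without LKO 1 and 0.59 without control 1. On the other Manf probe the difference was 0.16, and control 1 (14.1) lay above LKO 2 (13.5).

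The lectin chaperones that hold glycoproteins, Calr and Canx, differed by 0.26 ± 0.16 and 0.20 ± 0.11 (log2, SE), and Dnajc3, a co-chaperone that inhibits PERK, by 0.20 ± 0.11. The groups overlapped for each of them. Without LKO 2 the differences were 0.10 for Calr, 0.11 for Canx and 0.12 for Dnajc3. On the other Canx probe the difference was 0.12 with all mice. Dnajb11, a co-chaperone of BiP, was measured by 3 probes that gave unlike sizes. The representative probe differed by 0.30 (0.18 without LKO 2) and another for the same RefSeq transcript by 0.40. The third probe carries the accession of another Dnajb11 transcript, and its scaled signals were 0.788, 0.806 and 0.852 in LKO, against 0.171, 0.389 and 0.256 in controls. On that probe all LKO mice lay above all controls, and the log2 difference was 1.66 ± 0.28 (SE). The spread was small in LKO, but the dim control values ranged from 0.171 to 0.389. In a fit of 27949 single probes, chosen after the data were seen, its limma adjusted p was 0.206. With the mean of the 3 probes Dnajb11 differed by 0.79 in place of 0.30.

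**Figure D2:**
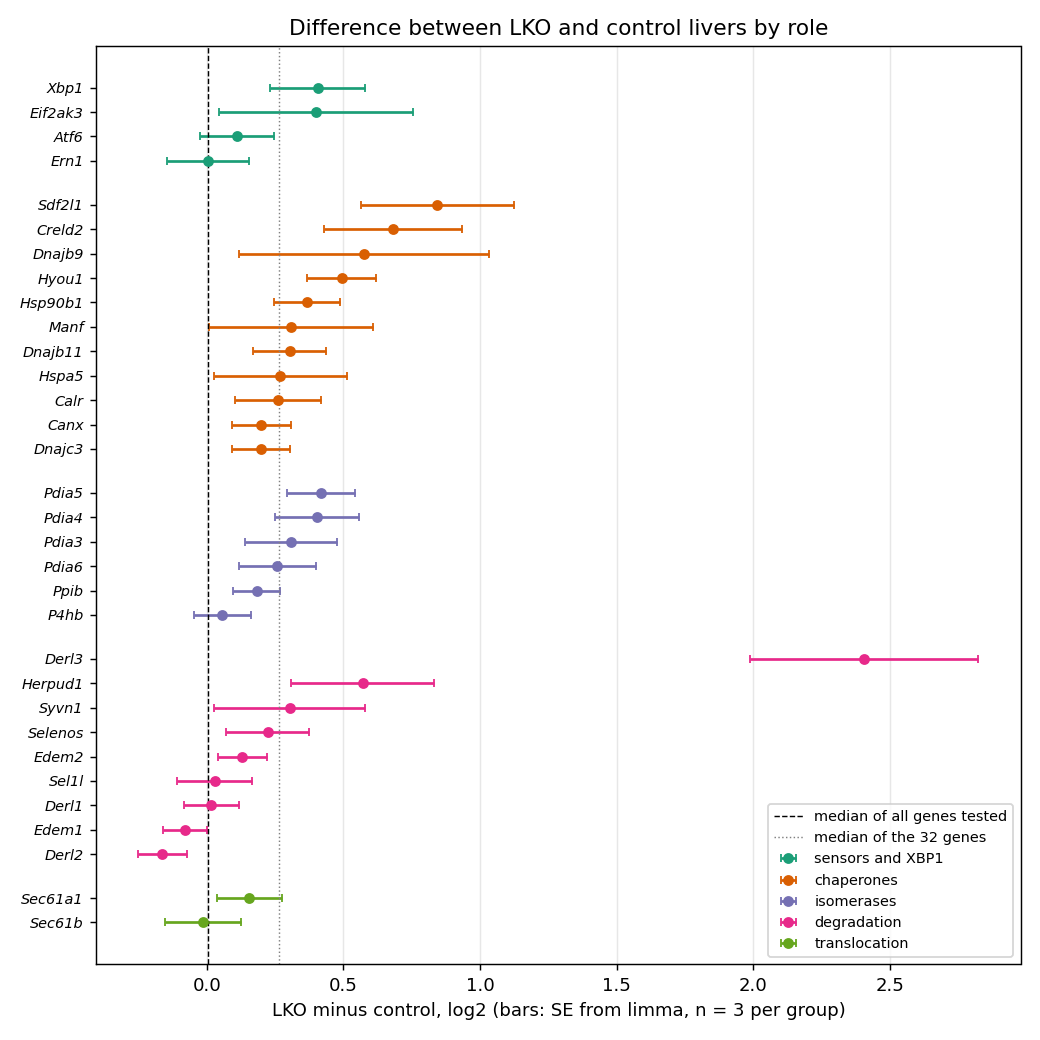
Log2 difference, LKO minus control, for the 32 genes by role, with SE from limma (n = 3 per group), the median of all genes tested (dashed, 0.00) and that of the 32 genes (dotted, 0.26). Chaperones and isomerases all lie to the right of 0, the degradation genes range from -0.16 for Derl2 to 2.41 for Derl3, and the error bars of many genes reach close to 0.

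All 6 isomerases were higher as well, with a median difference of 0.28, where 51.0% of all genes were higher. For 4 of them the groups did not overlap, against 8.16% of all genes higher without overlap. Pdia5, a disulfide isomerase, had scaled signals of 6.67, 8.91 and 8.53 in LKO, against 6.04, 6.02 and 5.84 in controls. The 3 controls were nearly identical (SD 0.03 on the log2 scale), and all LKO mice were above them, by 1.34-fold on average (0.42 ± 0.12, SE, limma adjusted p = 0.319). Pdia4, another disulfide isomerase, had 4.00, 5.75 and 4.38 in LKO, against 3.86, 3.18 and 3.56 in controls. LKO 1 was only just above control 1, and the difference was 1.32-fold (0.40 ± 0.15, SE, limma adjusted p = 0.418), and 0.25 on the log2 scale without LKO 2.

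Pdia3, the isomerase that works with the lectin chaperones, and Ppib, a prolyl isomerase, also had groups that did not overlap on the main probe. Their differences were 0.31 ± 0.17 and 0.18 ± 0.09 (log2, SE). On the other Pdia3 probe the difference was 0.18 and the groups overlapped, with LKO 3 (2.10) below control 1 (2.22) and control 3 (2.13). Pdia6 differed by 0.26 ± 0.14, with LKO 1 below control 3. Without LKO 2 the differences were 0.13 for Pdia3, 0.16 for Ppib and 0.13 for Pdia6. P4hb, the classical disulfide isomerase and a subunit of collagen prolyl hydroxylase, was the exception in size at 0.06 ± 0.10, and its value was -0.03 without LKO 2.

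Derl3 had the largest difference of the 32 and stood at rank 10 of the 14170 genes by size of increase. It encodes a derlin, one of the membrane proteins through which misfolded proteins leave the ER. Its scaled signals were 1.92, 3.82 and 1.64 in LKO, against 0.256, 0.528 and 0.597 in controls. Every LKO mouse was above every control by a wide margin, LKO 1 included, and the difference was 5.30-fold (log2 2.41 ± 0.42, SE, limma adjusted p = 0.164). Permuting the mice exactly (two-sided) gave p = 0.1 for Derl3 and for each other ER gene without overlap, and no smaller p is possible with 3 mice a group. The controls were dim on this probe, with processed signals of 75.3, 151 and 172 units, against 518, 1004 and 442 in LKO. Over the 16 alternatives the log2 difference lay between 1.91 (normexp background correction) and 2.65 (without LKO 3), and the limma adjusted p was 0.0971 or more. The log2 difference was 2.03 without control 1, and 2.15 with the slide row as a covariate.

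The other derlins did not share this. Derl1 differed by 0.02 ± 0.10 (log2, SE). Derl2 was lower in LKO, with scaled signals of 64.7, 58.9 and 56.4, against 67.5, 64.9 and 68.7 in controls. The groups of Derl2 were apart by a small margin between LKO 1 and control 2, with a difference of -0.16 ± 0.09 (limma adjusted p = 0.560). Its other probe differed by -0.23.

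Herpud1, which organizes the degradation complex, had scaled signals of 37.8, 73.9 and 51.3 in LKO, against 43.6, 34.3 and 29.2 in controls. LKO 1 lay among the controls and LKO 2 and 3 above them, and both probes differed by 0.57 (SE 0.26 for the main probe, limma adjusted p = 0.494). The main probe's difference was 0.32 without LKO 2 and 0.81 without LKO 1. Syvn1, the ubiquitin ligase HRD1, followed the same order of LKO mice with 25.8, 51.4 and 33.3 in LKO, against 37.3, 24.3 and 25.9 in controls. Its difference was 0.30 ± 0.28, with 0.03 without LKO 2 and 0.53 without LKO 1. Sel1l, the partner of HRD1, differed by 0.03 ± 0.14 on its main probe and by 0.27 on its other probe. That other probe had 0.954, 0.986 and 0.907 in LKO, against 0.814, 0.764 and 0.778 in controls, so the size depends on the probe. Selenos, which recruits the ATPase that pulls proteins out, differed by 0.22 ± 0.15. The Selenos difference was 0.13 without LKO 2 and 0.35 without LKO 1.

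Edem1 and Edem2 take part in trimming mannose from glycoproteins bound for degradation. Edem1 had 3.96, 4.07 and 3.96 in LKO, against 4.48, 4.09 and 4.11 in controls, a small difference of -0.08 ± 0.08 without overlap. Its other probe differed by 0.12, so its direction depends on the probe. Edem2 differed by 0.13 ± 0.09 and by -0.04 on its other probe. For the other 13 of the 15 genes with several probes, all probes had the same direction. Of the 9 degradation genes 7 were higher, with a median difference of 0.13.

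The translocation channel, through which new proteins enter the ER, showed no common direction. Sec61a1, the pore subunit, differed by 0.16 ± 0.12 and Sec61b, a small accessory subunit, by -0.01 ± 0.14 (log2, SE). On the main probes LKO 1 had the lowest level of both genes among the 6 mice and LKO 2 the highest. The other probes of Sec61a1 differed by 0.25 and 0.29. On the first of these LKO 1 (1.35) lay above all controls (1.26, 1.22 and 1.09). On the second LKO 1 (0.161) lay within the controls (0.169, 0.132 and 0.145).

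**Figure D3:**
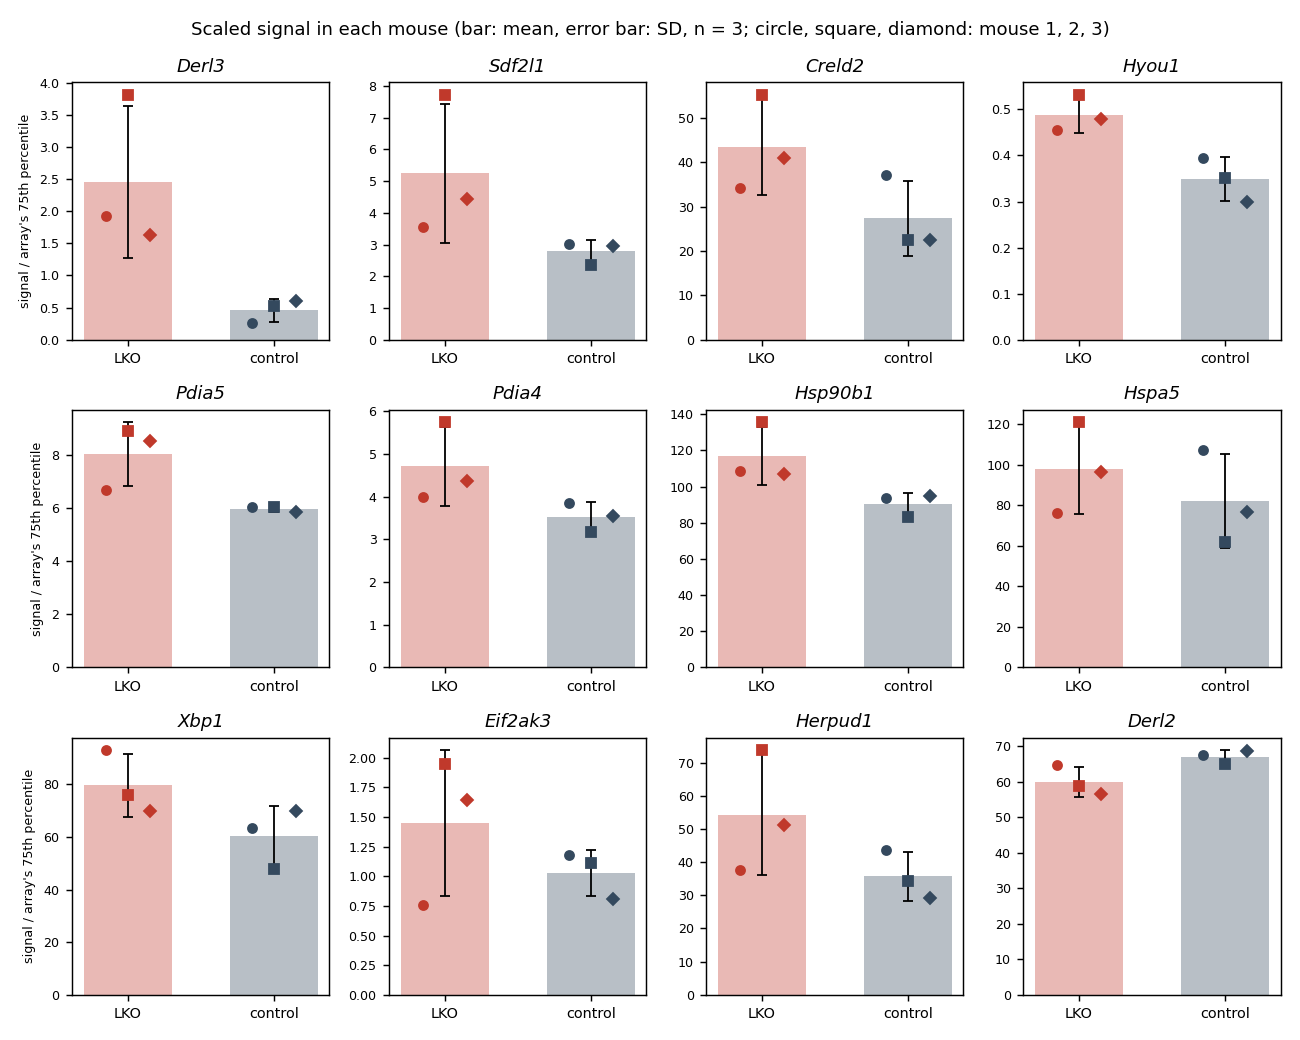
Signal divided by the 75th percentile of its array for 12 of the genes, with the mean and SD of 3 mice per group and each mouse as a symbol (circle 1, square 2, diamond 3). Derl3 is 1.64 or more in every LKO mouse and 0.597 or less in every control, whereas for Hspa5, Creld2 and Herpud1 control 1 overlaps the LKO range.

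The rest of the pathway was read from further lists, chosen with earlier results known. Of 14 genes of the PERK, ATF4 and CHOP arm, 6 were higher and 8 lower, with a median difference of -0.01, and 0 passed over all genes. Asns, asparagine synthetase and an ATF4 target, had scaled signals of 1.40, 0.702 and 1.14 in LKO, against 0.337, 0.528 and 0.540 in controls. All LKO mice were above the controls (2.27-fold, log2 1.18 ± 0.29, SE, limma adjusted p = 0.257), but LKO 2, the highest mouse for most ER genes, was the lowest of the 3. Chac1, which degrades glutathione, differed by 0.47 ± 0.20 and Nupr1, a stress-inducible nuclear protein, by -0.50 ± 0.16. Atf4 and Ddit3 (CHOP), named after their values were seen, differed by -0.02 ± 0.12 and 0.35 ± 0.30.

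Of 12 other sensors and processing proteases, 6 were higher and 6 lower. Creb3l3, a liver-enriched ER-bound transcription factor cut like ATF6, had 91.6, 97.4 and 84.6 in LKO, against 81.2, 73.2 and 71.1 in controls. Its groups did not overlap, with a difference of 0.28 ± 0.10 (SE, limma adjusted p = 0.378). Of the 12 genes, 2 were higher without overlap (8.16% of all genes) and 2 lower (9.03% of all genes). Among 22 other folding enzymes tested, 16 were higher with a median of 0.04. Erp29 (0.26 ± 0.10), an ER folding factor, and Txndc5 (0.23 ± 0.09), a disulfide isomerase, were higher and Fkbp14 (-0.44 ± 0.12), a prolyl isomerase, was lower, each without overlap and with limma adjusted p between 0.293 and 0.436. In this list 2 of the 22 were higher without overlap (8.16% of all genes) and 1 lower (9.03% of all genes).

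Glycan attachment and trimming had 11 of 15 genes higher with a median of 0.08, and its smallest p-values were those of Magt1 (0.17 ± 0.08) and Prkcsh (0.15 ± 0.09). Other degradation factors had 14 of 21 higher with a median of 0.08, where Os9 (0.24 ± 0.08), a lectin of the HRD1 complex, and Aup1 (0.19 ± 0.08) had an unadjusted limma p under 0.05. Groups did not overlap for 5 of these 21 genes, 3 higher in LKO (8.16% of all genes) and 2 lower (9.03% of all genes). Other translocation factors had 16 of 21 higher with a median of 0.07, with the smallest p-values for Ssr4 (0.16 ± 0.09) and Srp72 (0.15 ± 0.10). In ER to Golgi transport 14 of 25 were higher with a median of 0.04, and Sar1b, a GTPase of the vesicle coat, was lower (-0.22 ± 0.08). None of these lists had a gene that passed over all genes, and their medians were below the 0.31 of the chaperones and the 0.28 of the isomerases.

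**Figure D4:**
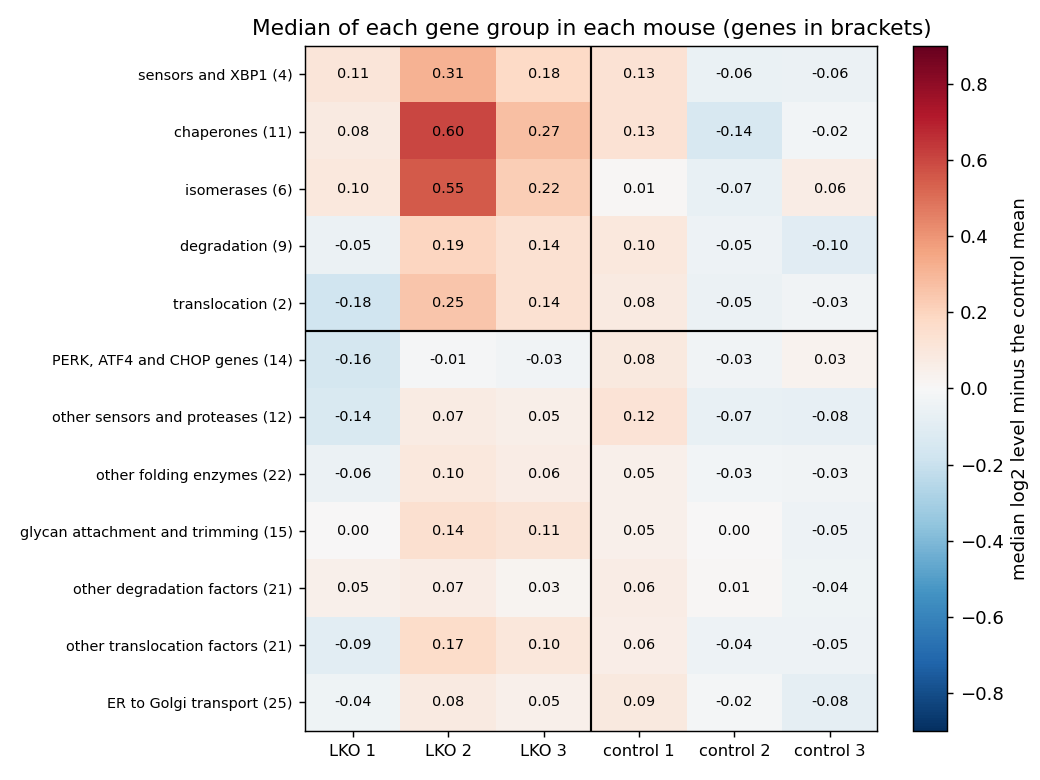
Median log2 level of each gene group in each mouse minus the control mean, with the 5 roles of the 32 genes above the line and 7 further lists of the pathway below it. The chaperone and isomerase medians are 0.60 and 0.55 in LKO 2, 0.27 and 0.22 in LKO 3, and 0.08 and 0.10 in LKO 1, while the further lists stay between -0.16 and 0.17 in every mouse. Degradation and translocation medians are 0.19 and 0.25 in LKO 2, 0.14 and 0.14 in LKO 3, and -0.05 and -0.18 in LKO 1.

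Some of these genes are abundant in other secretory cells, so markers of cell types that a liver piece could hold were read beside them. Of 18 pancreatic acinar markers on the array, 6 were well above background on all 6 arrays and 10 on none. Cpa1, Cpb1, Pnlip and Ptf1a were among the 10. Of the 6 tested, 2 were higher and 4 lower in LKO, with a median of -0.06 and a range of -0.47 to 0.47. The summed scaled signal of the list was 8.42 to 9.44 in LKO and 8.02 to 9.08 in controls. Of 12 plasma and B cell markers, Tnfrsf17, Cd79a and Irf4 were well above background on no array and Mzb1 on 2 control arrays and no LKO array. The sum of that list was 3.04 to 3.42 in LKO and 2.57 to 3.12 in controls. Of its 6 genes tested, 3 were higher and 3 lower with a median of 0.00, from Jchain at -0.90 ± 0.27 to Cd79b at 0.46 ± 0.32 (log2, SE). Kupffer cell and macrophage markers were higher in LKO for all 14, with a median of 0.22 and sums of 130 to 156 in LKO and 105 to 144 in controls. Of 6 neutrophil markers tested, 4 were higher and 2 lower with a median of 0.70, from Elane at -0.19 ± 0.12 to S100a8 at 2.43 ± 0.60, and Mpo, Ngp and Cxcr2 were well above background on no array. Their sums were 74.7 to 87.7 in LKO and 69.6 to 80.7 in controls. Erythroid markers were higher in LKO for all 5 tested, with a median of 0.28 and sums of 559 to 896 in LKO and 503 to 715 in controls, highest in LKO 1 and lowest among LKO in LKO 3. Hepatocyte markers were higher for 13 of 15, with a median of 0.07 and sums of 5987 to 6388 in LKO and 5642 to 5954 in controls, which did not overlap. T and NK cell markers were higher for 4 of 7, endothelial for 6 of 11, stellate for 6 of 11 and bile duct for 2 of 6. The part of these cells in the differences of the ER genes was not tested.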

How the data were processed

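RNA of 6 livers was hybridized to one-colour arrays. Per the file headers and the submitters' processing notes, the scans were read with Agilent Feature Extraction 11.5.1.1. The processed signal, as deposited, is a background-corrected intensity, and the deposited spot flags for background, saturation and outliers are other values set by the software. The authors' value table equals that intensity times a constant between 2.08 and 2.48 per array, whose origin the sources used here do not state. It is linear and not centred, with column medians of 63.7, 59.1 and 62.2 in LKO and 55.3, 62.9 and 61.5 in controls.

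Processed signals were divided by their array's 75th percentile (263 to 294 units) and analysed as log2. Control spots and the 64 to 111 outlier spots per array were left out, and spots of a probe were averaged. Of 56605 probes, 32994 had 1 gene symbol through RefSeq accessions (GRCm38.p6), 0 had several and 23611 had none. A gene was represented by its brightest probe, and tested if all 3 arrays of a group had that probe well above background. Groups were compared with limma 3.58.1 (lmFit, eBayes) in R 4.3.3, two-sided, without a block, with Benjamini-Hochberg adjustment, and the fit was tested on simulated data. Members, lists and the alternatives were chosen with earlier results of these data known. By the rule for named genes, every mouse's value is given for ER genes with an unadjusted p under 0.05, the sensors, Hspa5, Hsp90b1, Dnajb9 and Herpud1, and each further list gives up to 4 genes under that p, or else 2. Values of Derl2, Edem1, Syvn1 and the Dnajb11 probe were added after they were seen. Promoter positions are those of the RefSeq table, not of the array design. The number of arrays limits the precision.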

Additional observations from a re-analysis of the deposited data

How the results depend on the processing

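In each of the 16 alternatives 0 of the 32 ER genes passed an adjusted p of 0.05, and the smallest adjusted p was 0.0971, for Derl3 with normexp. The number of ER genes higher in LKO was 18 with the slide row as a covariate, and 26 to 30 when 1 mouse was left out. Their median log2 difference was 0.0533 with the slide row, and 0.126 (without LKO 2) to 0.369 (without LKO 1) when 1 mouse was left out. The direction of 18 genes, among them Derl3, Sdf2l1, Creld2, Hyou1, Hsp90b1 and Pdia5, held in every alternative, and that of 14 did not. With the slide row, values were -0.0788 for Atf6, -0.13 for Derl1, -0.17 for Dnajb9, -0.43 for Eif2ak3, -0.0660 for Hspa5, -0.0720 for Manf, -0.0236 for P4hb, -0.0772 for Sec61a1, -0.14 for Sel1l, -0.0423 for Selenos and -0.15 for Syvn1, a fit in which only LKO 1 is set against the controls. With median scaling they were -0.0375 for Derl1, -0.0484 for Ern1 and -0.0252 for Sel1l, with normexp -0.0535 for Derl1, and with the mean of probes 0.0185 for Edem1. Leaving out 1 mouse gave -0.0335 to 0.0890 for Derl1, -0.14 to 0.13 for Ern1, -0.0301 to 0.10 for P4hb, -0.12 to 0.12 for Sec61b and -0.0584 to 0.14 for Sel1l. Apart from the slide row and the mean of probes, whose construction differs as stated, the cause was not tested. The labels give both groups the numbers 1 to 3. Deviations of same-numbered mice correlated at 0.04, -0.05 and -0.07 over genes, so the numbers were not taken as pairs. With the replicate block the median stayed at 0.26 with 29 genes higher, 0 passed, and 4 in place of 7 had an unadjusted p under 0.05. That count was 14 without LKO 1, 3 without control 2, 4 without LKO 2, and 12 with normexp. The share of all genes higher at that p moved too, from 5.59% in the main setting to 4.73% with the replicate block. It was 7.02% without LKO 1, 4.35% without control 2, 4.09% without LKO 2, and 6.02% with normexp. Other alternatives were quantile normalization, the authors' value table, no filter and a stricter filter on dim probes, and trend and robust eBayes. At an unadjusted p under 0.05 the counts over all genes were 372 higher and 336 lower with the slide row and 459 and 1131 with median scaling, against 792 and 788. Over all genes, 2 passed in the main setting, 9 without LKO 1, 3 with the replicate block, and 1 with normexp, no filter, the stricter filter, trend and robust eBayes, the slide row, and without LKO 2 or any 1 control.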
